A study of Homo sapiens with 3 samples.

Results

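The 47 genes described here encode the machinery of the G2 phase and of mitosis, from the cyclin B kinase that starts mitosis to the proteins that cut the daughter cells apart. They were taken by symbol from a list of textbook G2/M genes, and all 47 had a row among the 12040 genes of the deposited table. The study asked how gene expression in HEK293, an established human embryonic kidney cell line, responds when DICER1 is knocked down. DICER1 trims hairpin precursors to mature miRNAs. It used 1 library of a DICER1 knockdown, 1 of a DROSHA knockdown, which blocks the preceding step of miRNA maturation, and 1 of a mock transfection. All 3 cultures were of a T-REx Flp-In derivative that carries a FLAG-tagged DICER1 transgene, were transfected for RNA interference and carry the tag 2.5d in their titles, which is not explained. Poly(A) RNA was sequenced.

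Cells that have copied their DNA prepare for division by accumulating cyclins A and B, which activate CDK1. Polo and Aurora kinases then help to build the spindle, kinetochores tie each chromosome to it, and a checkpoint holds back the anaphase-promoting complex (APC/C), the ubiquitin ligase that ends mitosis, until all chromosomes are attached. In cycling cells most of these genes are transcribed together, late in the cycle, and are held down earlier by the DREAM complex, which reaches their promoters through a short element called CHR (cell cycle genes homology region), often together with CCAAT boxes bound by NF-Y.

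The table gives 3 levels per gene, in a unit it does not name, so levels are compared here between libraries and never between genes. Its columns have no names, and no label ties a library to either knockdown or to the mock transfection. A shared library is the denominator of both of the table's fold changes. The library set against it in the first comparison is called the first library, and that of the second comparison the second library. A log2 fold change is the log2 ratio of 2 levels after 1 was added to each, which shrinks changes at low levels. With 1 library in each of the 3 groups there was no replicate error and no test, and every value describes these libraries only. The words rose and fell are kept for log2 fold changes of 1 or more in size, which is 2-fold, and values of 0.5 or more in size, or 1.41-fold, are counted beside them.

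The targeted genes were listed with different levels in the libraries. DICER1 had a level of 5.72 in the first library and 24.0 in the second, against 15.7 in the shared library, and its row can also hold reads of the transgene. DROSHA had a level of 21.4 in the first library and 6.72 in the second, against 23.3 in the shared library. Of 7 genes listed as detected in HEK293 cultures, 5 had a row, all for intermediate filaments: VIM, KRT8, KRT18, NEFL and INA. INA, a neuronal filament, had levels of 23.7 in the first library and 7.07 in the second, against 10.9 in the shared library. It differed most of the 5. In the same order, VIM had levels of 369, 235 and 263, and NEFL had 37.1, 18.2 and 23.2. KRT8 had 39.2, 29.4 and 42.1, below the shared library in both, and KRT18 was nearly even at 43.0, 43.5 and 43.2. None of 7 fibroblast markers had a row, and 2 of 10 blood and endothelial markers did. Of these, HBA1, a globin gene, had levels of 8.12 in the first library and 2.77 in the second, against 3.08 in the shared library, and CD68 had levels of 2.85, 4.07 and 2.98 in the same order. The part of these in the values below was not tested.

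The promoters of the G2/M genes shared the elements for which the group is known. RefSeq promoter windows (GRCh38.p14) of 250 bases before to 50 bases after a transcription start were matched by symbol for 40 of the 47 genes, 5 of which have more than 1 start. The other 7 genes are AURKA, BUB3, TTK, BIRC5, TPX2, UBE2C and RACGAP1. A CHR, searched as TTTGAA or TTCGAA on both strands, was found for 31 of the 40 genes (77.5%), against 15.1% of the 8633 genes of the table with a window. CCAAT, on both strands, was found for 33 of the 40 (82.5%), against 44.1% of those 8633 genes. Counted over single windows, a CHR was in 34 of the 49 windows of these genes (69.4%). It was in 11.5% of the 12802 windows of genes of the table and in 16.4% of all 35116 promoter windows. CCAAT was in 37 of the 49 (75.5%), against 34.9% and 34.6% in the same order. Both elements stood in the same window for 27 genes (67.5%), against 6.44% of the genes of the table. A CHR lay within 50 bases of a start in 28 of the 31 genes that had one, where any site at any start counted. This position was not counted for the other genes of the table, so the 28 have no share to be set against.

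The 100 bases before the start are shown for 5 genes, to let the element be seen in its setting. They are the genes with a CHR in that stretch whose fold changes, described below, were the largest in size. Other genes with a CHR had larger fold changes than CENPA, the smallest of these, and are not among them. OIP5, MAD2L1, NUF2, BUB1 and KIF20B have the CHR only after the start, and SPC25, TOP2A and ECT2 have none wholly within the stretch. Capitals mark TTTGAA or its reverse complement TTCAAA, and CCAAT or its reverse complement ATTGG. In ANLN the element and its reverse complement stand side by side, and in CDCA8 the CHR and an ATTGG overlap. The windows are ANLN at chr7:36389762-36389861 on the plus strand, KIF23 at chr15:69414249-69414348 on the plus strand, CDCA8 at chr1:37692416-37692515 on the plus strand, CDC25C at chr5:138331805-138331904 on the minus strand and CENPA at chr2:26785956-26786055 on the plus strand.
ANLN: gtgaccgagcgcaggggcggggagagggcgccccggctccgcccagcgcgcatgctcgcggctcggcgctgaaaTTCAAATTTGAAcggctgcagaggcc
KIF23: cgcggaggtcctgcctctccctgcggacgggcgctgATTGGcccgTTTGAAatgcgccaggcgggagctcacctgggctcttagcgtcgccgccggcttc
CDCA8: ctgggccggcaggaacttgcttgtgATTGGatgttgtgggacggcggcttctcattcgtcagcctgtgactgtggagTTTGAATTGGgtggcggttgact
CDC25C: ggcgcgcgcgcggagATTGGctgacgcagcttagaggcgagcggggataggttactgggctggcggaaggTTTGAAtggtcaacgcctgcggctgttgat
CENPA: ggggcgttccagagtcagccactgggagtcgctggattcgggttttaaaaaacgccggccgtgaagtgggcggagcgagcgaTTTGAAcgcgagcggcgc

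The 5 genes share the element and not the values. Their log2 fold changes in the first comparison were -0.43 (ANLN), -0.22 (KIF23), 0.16 (CDCA8), -0.34 (CDC25C) and -0.31 (CENPA). In the second comparison they were 0.55 (ANLN), -0.37 (KIF23), -0.35 (CDCA8), -0.25 (CDC25C) and 0.24 (CENPA). The 31 genes with a CHR had median log2 fold changes of -0.12 (first comparison) and 0.082 (second comparison), and the 9 genes with a window and no CHR had -0.11 and 0.11.

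Across the whole group the differences between libraries were small, and 1 gene of the 47 passed 2-fold. In the first comparison the median log2 fold change of the 47 genes was -0.030, with quartiles at -0.26 and 0.047, against a median of 0.030 and quartiles at -0.096 and 0.15 over all 12040 genes. The mean of the 47 was -0.098, since the low end reached further than the high end. In this comparison 20 of the 47 stood above 0 (42.6%), where 56.5% of all genes did. None rose (0.174% of all genes) and none fell (0.166%). None reached 0.5 (1.46% of all genes), and MAD2L1 alone was at or below -0.5 (2.04% of all genes).

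In the second comparison the group lay on the other side of all genes. The median of the 47 genes was 0.10, with quartiles at -0.061 and 0.24, against 0.0063 and quartiles at -0.18 and 0.17 over all genes. Above 0 stood 33 of the 47 (70.2%), where 51.1% of all genes did. OIP5 alone fell (0.748% of all genes) and none rose (0.0831%). ANLN alone reached 0.5 (2.33% of all genes), and OIP5 alone was at or below -0.5 (5.59%).

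The first minus the second fold change sets the first library against the second directly, without the shared library. Its median over the 47 genes was -0.17, with quartiles at -0.44 and 0.028, against 0.025 and quartiles at -0.18 and 0.24 over all genes. With 1 gene at 1 or more, OIP5 (1.31% of all genes), and none at -1 or less (0.349%), few passed 2-fold here too. At -0.5 or less stood 8 of the 47 (17.0%, against 4.82% of all genes): ANLN, MAD2L1, CCNA2, AURKA, CENPA, NEK2, ECT2 and NUF2. At 0.5 or more stood OIP5 and CDCA8 (4.26%, against 8.6% of all genes), and 14 of the 47 were above 0 (29.8%, against 53.4%). Adjusted over all matched genes for GC content and length, the median was -0.10, against -0.020 over those genes. Read as levels, the first library held the lowest of the 3 levels for 24 of the 47 genes (29.3% of all genes), and the second library held the highest for 29 (38.2%).

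**Figure D1:**
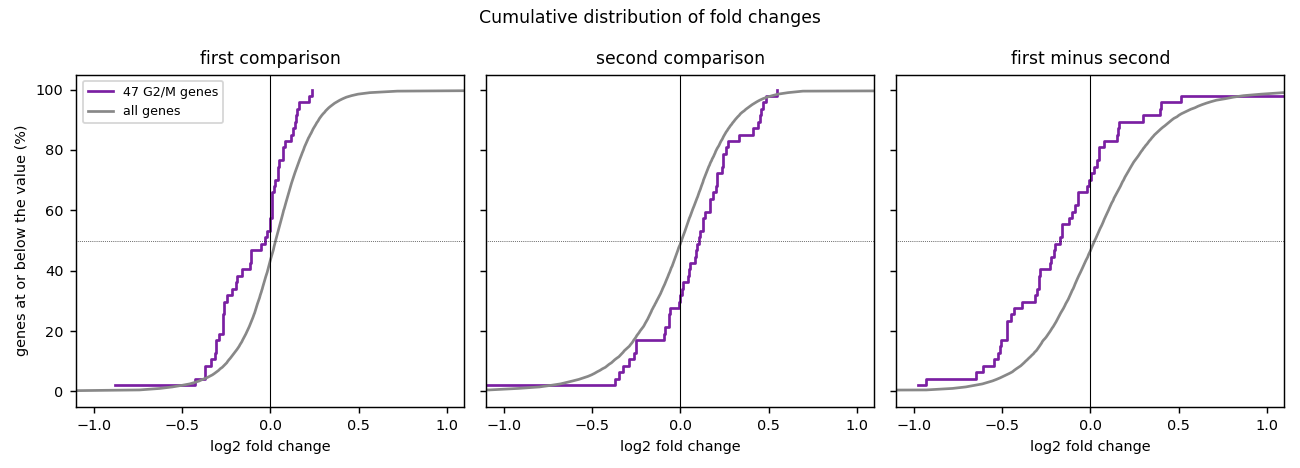
Cumulative distributions of the log2 fold change in the first comparison, the second comparison and the first minus the second, with the share of genes at or below a value in percent on the vertical axis. The purple steps are the 47 G2/M genes and the grey line all 12040 genes; the horizontal axis is cut at -1.1 and 1.1. The purple line lies mostly left of the grey one in the first panel (medians -0.030 and 0.030), mostly right of it in the middle panel (0.10 and 0.0063) and mostly left of it in the last (-0.17 and 0.025). OIP5 lies beyond the axis in the middle and last panels.

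The cyclin-CDK switch, which starts mitosis, held 7 of the genes. CCNA2, cyclin A2, needed for S phase and for entry into mitosis, had levels of 31.6 in the first library and 50.2 in the second, against 39.6 in the shared library. It was lowest in the first library and highest in the second, with log2 fold changes of -0.32 and 0.33. The levels of CDC25C, a phosphatase that removes the inhibitory phosphates of CDK1, were 9.10 in the first library and 9.73 in the second, against 11.8 in the shared library. Here the shared library was the highest, with log2 fold changes of -0.34 and -0.25. CCNB1, cyclin B1, had levels of 79.7 in the first library and 91.6 in the second, against 97.7 in the shared library, and log2 fold changes of -0.29 and -0.091. CCNB2, the other listed B-type cyclin, differed: its levels were 42.7 in the first library and 48.2 in the second, against 42.8 in the shared library, so that the second library was highest. CDK1 itself had levels of 92.3 in the first library and 103.3 in the second, against 103.3 in the shared library, so that only the first library stood apart, at -0.16. CDC25B, a second phosphatase of the same kind, and CDCA3, which helps to degrade the inhibitory kinase WEE1, lay between -0.067 and 0.085 in both comparisons.

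Among the mitotic kinases, AURKA and NEK2, which act at the centrosomes, differed most between the first and the second library. AURKA had levels of 35.2 in the first library and 54.2 in the second, against 45.7 in the shared library, with log2 fold changes of -0.37 and 0.24. NEK2 had levels of 19.3 in the first library and 28.2 in the second, against 20.9 in the shared library, with log2 fold changes of -0.11 and 0.41. Both were lowest in the first and highest in the second library. PLK1, the polo kinase, differed little, with log2 fold changes of 0.024 and 0.096. The chromosomal passenger complex corrects faulty attachments and later marks the cleavage site. Its kinase AURKB was at 0.15 and 0.17 and its subunit BIRC5, survivin, at 0.071 and 0.14 in log2 fold change. CDCA8, borealin, another subunit of the same complex, lay the opposite way between the first and the second library. Its levels were 31.9 in the first library and 22.1 in the second, against 28.4 in the shared library, so that the second library was lowest, with log2 fold changes of 0.16 and -0.35.

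In the spindle assembly checkpoint 1 gene stood apart in the first comparison. MAD2L1 encodes MAD2, the protein that binds CDC20 and so holds back the APC/C. Its level was 47.8 in the first library and 92.0 in the second, against 88.9 in the shared library. The first library was thus the low one, with a log2 fold change of -0.88, the 28th lowest of all 12040 genes, and the second and shared libraries were close, at 0.049. TTK, also called MPS1, and BUB1, kinases that start checkpoint signalling at the kinetochore, were highest in the second library. TTK had levels of 27.5 in the first library and 38.5 in the second, against 27.6 in the shared library, and BUB1 had 25.4, 34.6 and 25.0025 in the same order. Their log2 fold changes in the second comparison were 0.47 and 0.45, and in the first comparison they were -0.0033 and 0.021. BUB1B, also called BUBR1, was at -0.030 and 0.13. BUB3, its binding partner, was lowest in the second library, with levels of 151 in the first and 122 in the second, against 150 in the shared library, and a log2 fold change of -0.29 in the second comparison. CDC20, the checkpoint's target and activator of the APC/C, and UBE2C, a ubiquitin-conjugating enzyme of the APC/C, were above 0 in both comparisons. CDC20 was at 0.12 and 0.082 and UBE2C at 0.22 and 0.057 in log2 fold change. UBE2C had levels of 114 in the first library and 101 in the second, against 97.4 in the shared library.

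OIP5, a centromere gene, was the member that fell. It encodes a subunit of the Mis18 complex, which prepares centromeres to receive the histone CENPA. Its level was 18.1 in the first library and 6.19 in the second, against 21.9 in the shared library. The second library was far below both others, with a log2 fold change of -1.67, the 8th lowest of all genes, which is 3.18-fold lower on the scale of level plus 1. In the first comparison OIP5 was at -0.26. The 2-fold call depends on the low level of OIP5 beside the added constant: with 10 in place of 1 added to each level it was at -0.98, short of the threshold, and no member then passed it. Exons of OIP5 share 470 of their 1236 bases with OIP5-AS1, a noncoding gene on the opposite strand, and the sources used here do not say whether strand was used in counting. OIP5-AS1 had levels of 23.6 in the first library and 34.6 in the second, against 23.3 in the shared library, a log2 fold change of 0.55 in the second comparison. Reads of the overlap cannot be told apart without strand, so the value of OIP5 is uncertain to that extent. MIS18A, which acts with OIP5 in the same step, and HJURP, the chaperone of CENPA, had log2 fold changes of 0.16 and -0.039 in the second comparison.

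CENPA, the histone H3 variant that marks centromeres, had levels of 8.58 in the first library and 13.0 in the second, against 10.8 in the shared library, with log2 fold changes of -0.31 and 0.24. The 4 subunits of the NDC80 complex, which grips the ends of microtubules, did not share a pattern. NUF2 had levels of 26.7 in the first library and 38.3 in the second, against 27.1 in the shared library, and SPC25 had 18.8, 23.2 and 24.7 in the same order. The second library was thus the high one for NUF2, at 0.49, and the first the low one for SPC25, at -0.37. NDC80 was at -0.053 and 0.24 and SPC24 at 0.042 and -0.0084. CENPF, a large protein of the outer kinetochore, was at -0.27 and 0.21, and CENPE, a kinesin that carries chromosomes to the spindle equator, at -0.11 and 0.012.

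Of the 6 mitotic kinesins, 5 were above 0 in the second comparison, where 51.1% of all genes were. KIF20A, which moves the chromosomal passenger complex to the midzone, had levels of 39.0 in the first library and 45.7 in the second, against 33.0 in the shared library. Its log2 fold changes were 0.24, the highest of the 47 genes in the first comparison, and 0.46. KIF20B was at 0.051 and 0.44, and KIF11, the motor that pushes the spindle poles apart, at -0.19 and 0.26. KIF23, which bundles microtubules at the cleavage site, was the exception, with levels of 38.6 in the first library and 34.5 in the second, against 45.0 in the shared library. It was highest in the shared library, at -0.22 and -0.37. KIF2C, a microtubule depolymerase, and KIF4A, which condenses chromosomes and shapes the midzone, were close to 0, KIF2C at 0.0094 and 0.11 and KIF4A at 0.0098 and 0.016. KIF4A has a near-identical retrotransposed copy, KIF4B, so that reads could be shared between them.

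**Figure D2:**
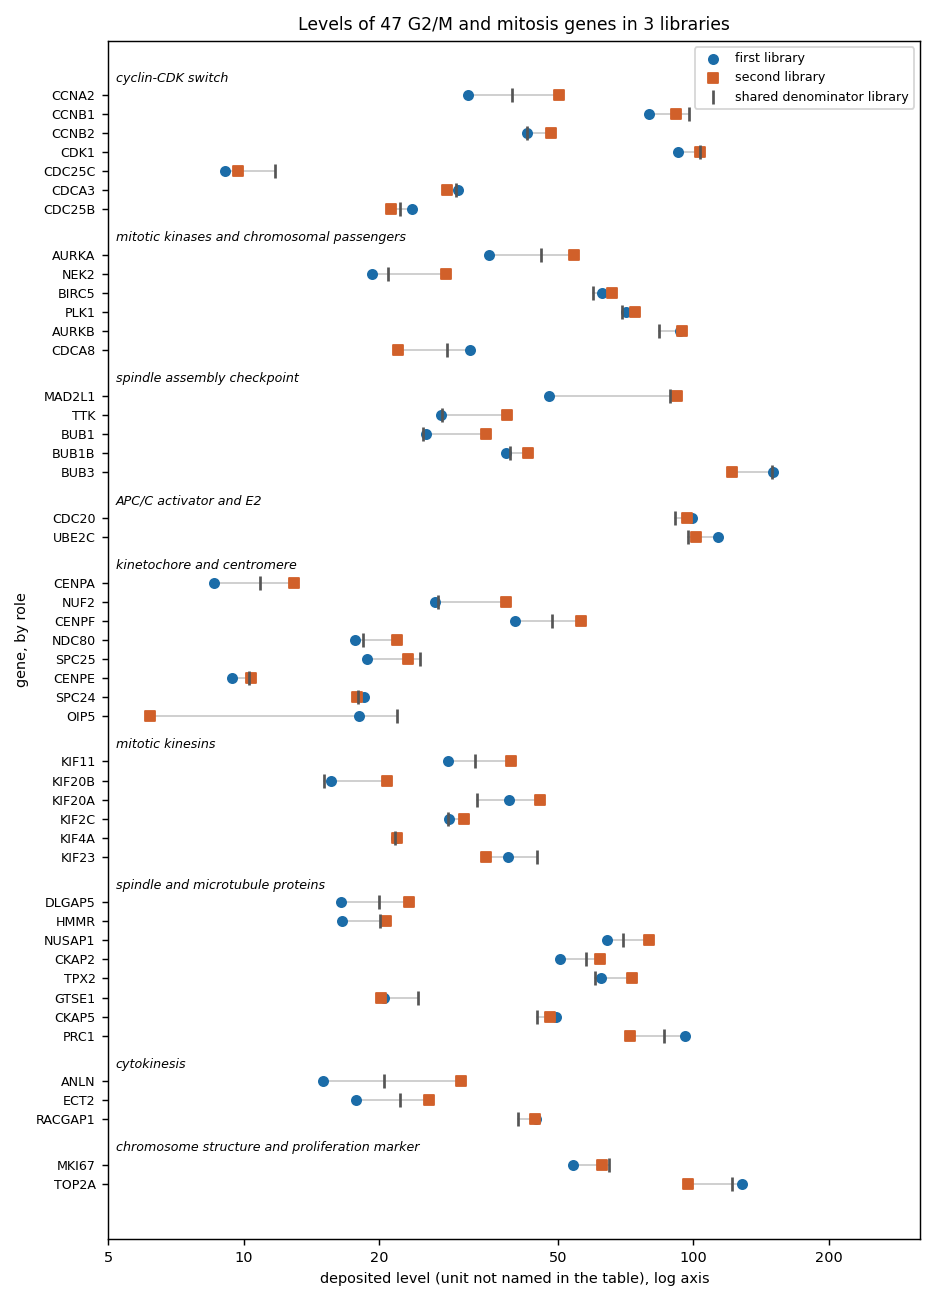
Levels of the 47 genes in the first library (blue circles), the second library (orange squares) and the shared denominator library (grey bars), 1 value each, on a log axis in the table's unnamed unit, with genes grouped by role. MAD2L1 is low in the first library (47.8, against 88.9 in the shared library) and OIP5 in the second (6.19, against 21.9).

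The 8 genes of spindle and microtubule proteins spread from -0.27 to 0.15 in the first comparison and from -0.26 to 0.27 in the second. HMMR and DLGAP5, which help to organise spindle microtubules, were both at -0.27 in the first comparison, and at 0.046 and 0.21 in the second. DLGAP5 had levels of 16.5 in the first library and 23.3 in the second, against 20.04 in the shared library. TPX2, which activates AURKA on the spindle, had levels of 62.5 in the first library and 73.2 in the second, against 60.6 in the shared library, and log2 fold changes of 0.043 and 0.27. NUSAP1 was at -0.12 and 0.19, CKAP2 at -0.19 and 0.10, and CKAP5, a microtubule polymerase, at 0.14 and 0.090. GTSE1 and PRC1 were the 2 of these 8 below 0 in the second comparison. GTSE1 was at -0.24 and -0.26, and PRC1, which crosslinks the midzone, had levels of 95.6 in the first library and 72.2 in the second, against 86.2 in the shared library, with log2 fold changes of 0.15 and -0.25.

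ANLN, anillin, the scaffold of the contractile ring that divides the cell, had the highest value of the 47 genes in the second comparison and the second lowest in the first. Its level was 15.0 in the first library and 30.5 in the second, against 20.5 in the shared library. The log2 fold changes were -0.43 and 0.55, and the difference of -0.97 between the first and the second library was the 49th lowest of all 12040 genes. ECT2, which activates RhoA at the cleavage site, lay the same way with levels of 17.8 in the first library and 25.8 in the second, against 22.3 in the shared library. RACGAP1, its partner there, was at 0.13 in both. Of the last 2 genes, TOP2A, the topoisomerase that untangles sister chromosomes, had levels of 129 in the first library and 97.4 in the second, against 122 in the shared library, a log2 fold change of -0.32 in the second comparison. MKI67, the source of the proliferation antigen Ki-67, was lower in the first library at 54.1 and 62.5 in the second, against 65.0 in the shared library, with log2 fold changes of -0.26 and -0.056.

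**Figure D3:**
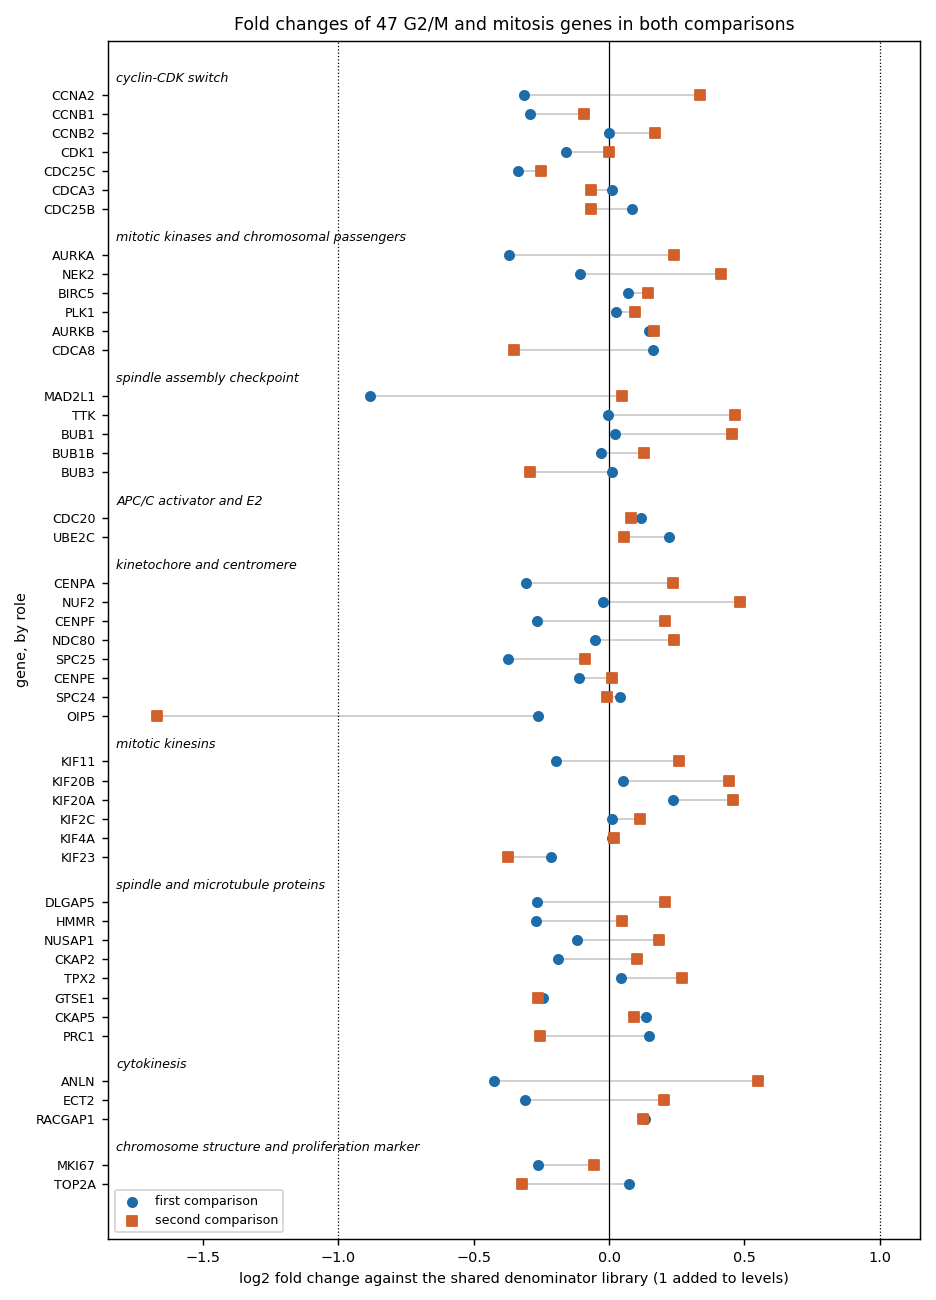
Log2 fold changes of the 47 genes against the shared library, by role, in the first comparison (blue circles) and the second comparison (orange squares), with a grey line between the values of a gene and dotted lines at -1 and 1. OIP5 in the second comparison (-1.67) is the only point past a dotted line, and ANLN (-0.43 and 0.55) and MAD2L1 (-0.88 and 0.049) have the next longest grey lines.

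Several of the lowest members carried, in the 3' UTR, short words that mark low genes in these comparisons. An earlier scan of this table had picked CAATCTA and AATCTAA as the 7-mers whose carriers were lowest in the first comparison, and GTGACTT and TGACTTA as those of the second. They were chosen on the values of all genes, these 47 included, so their counts here are a description and no independent evidence. The 3' UTR was read from 1 GENCODE release 29 transcript for each gene (GRCh38), and which 3' ends the cells use is not known from the table. Of the 47 genes, 6 held CAATCTA or AATCTAA (12.8%, against 14.3% of 10365 genes with a 3' UTR of at least 50 bases). The 6 had a median of -0.34 in the first comparison, and the other 41 a median of -0.0033. Over all 10365 genes the medians were -0.097 with and 0.051 without. Of the 6 lowest members in that comparison, 4 were carriers.

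The carrier sites of the first comparison are shown with their surroundings, in the sense of the transcript, to let the shared letters be compared, for all 6 genes, chosen after their values were seen. Capitals mark the 7-mer, whose position on GRCh38 is given. MAD2L1, on the minus strand, has CAATCTA at chr4:120059283-120059289, which overlaps an AATCTAA 1 base further on, and another AATCTAA at chr4:120058970-120058976. AURKA, on the minus strand, has CAATCTA at chr20:56370056-56370062. The other carriers hold AATCTAA: ANLN at chr7:36452856-36452862 and KIF11 at chr10:92654686-92654692 on the plus strand, CCNA2 at chr4:121817187-121817193 and, overlapping it, at chr4:121817182-121817188 on the minus strand, and BUB3 at chr10:123170057-123170063 on the plus strand.
MAD2L1: tgaggtgtcttCAATCTAatggataaact
MAD2L1, further on: ctctaatctctAATCTAAatctgacctca
AURKA: actgctgccctCAATCTAgaacgctacac
ANLN: attttcctagaAATCTAAttattcagtta
CCNA2: gacttgggcatAATCTAAtctaagcatat
KIF11: tgtcaacaataAATCTAAccctagttgta
BUB3: gaccttatcttAATCTAAaaaataaaatt

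In order of their first log2 fold change, the carriers were MAD2L1 at -0.88, ANLN at -0.43, AURKA at -0.37, CCNA2 at -0.32, KIF11 at -0.19 and BUB3 at 0.0092. MAD2L1 held 2 separate sites, CCNA2 an overlapping pair, and ANLN, AURKA, KIF11 and BUB3 held 1 each. That of BUB3 lies near the end of a 3' UTR of 6632 bases. The part of site number or position in the values was not tested. SPC25, at -0.37, and CDC25C, at -0.34, lay lower than CCNA2 with neither 7-mer in the 3' UTR. CDC25C held CAATCTA at base 120 of its transcript, before the 3' UTR, and SPC25 held neither word anywhere in its transcript. Members that held either word before the 3' UTR ranged from ANLN at -0.43 to TOP2A at 0.075 in the first comparison. ANLN also held a site in the 3' UTR, and the part of sites before it was not tested.

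In the second comparison 9 of the 47 genes held GTGACTT or TGACTTA in the 3' UTR (19.1%, against 20.8% of the 10365 genes). Their median was -0.25, against 0.14 for the other 38, while over all genes the medians were -0.049 with and 0.024 without. The 7 with GTGACTT, which are KIF23, CDCA8, TOP2A, BUB3, PRC1, MKI67 and MAD2L1, had a median of -0.29, ranging from -0.37 to 0.049. The 4 with TGACTTA ranged from -0.25 to 0.20; MAD2L1 and PRC1 held both words, and CENPE and ECT2, with TGACTTA alone, were at 0.012 and 0.20. The values of the carriers of each word overlapped. Of the 6 lowest members in that comparison, 4 were carriers: KIF23, CDCA8, TOP2A and BUB3, all with GTGACTT. OIP5, the lowest, and GTSE1 held neither word in the 3' UTR. OIP5 itself held none of the 4 words anywhere in its 1236-base transcript. The 4 genes' sites are shown, with GTGACTT in capitals; they lie at chr15:69448190-69448196 (KIF23, plus strand), chr1:37709320-37709326 (CDCA8, plus strand), chr17:40388624-40388630 (TOP2A, minus strand) and chr10:123166310-123166316 (BUB3, plus strand, the first of 3).
KIF23: gattttttattGTGACTTctccagccctg
CDCA8: caggggtgggtGTGACTTgcttggtggcc
TOP2A: gttatatgtgtGTGACTTgagtaatgtta
BUB3: ctaatagagtaGTGACTTttgaaccttgt

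**Figure D4:**
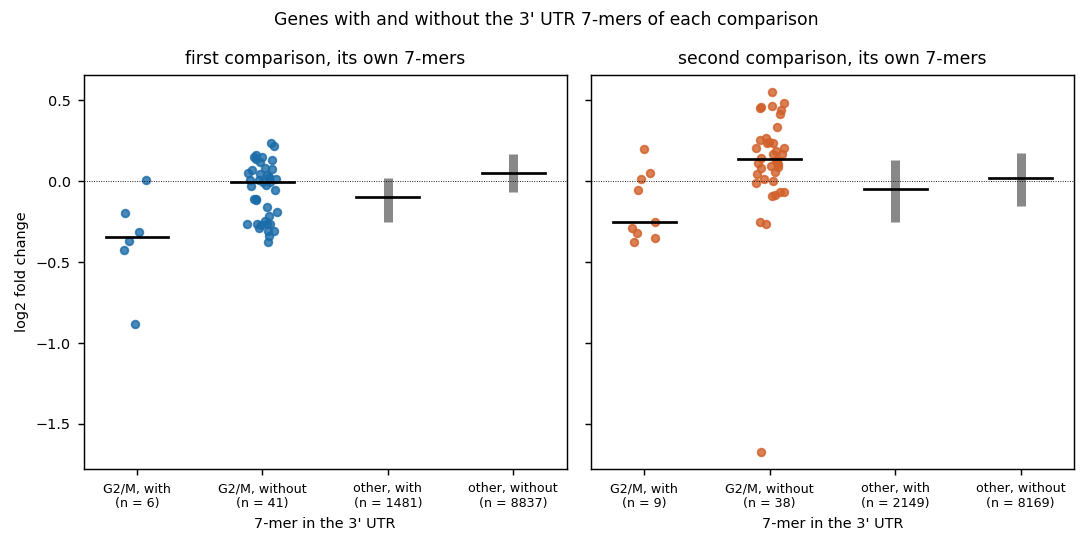
Log2 fold changes in the first (left) and second comparison (right) for G2/M genes with and without that comparison's 7-mers in the 3' UTR (points, 1 a gene, spread sideways to be visible) and for other genes (grey bars, quartiles); black lines are medians. G2/M carriers have medians of -0.34 and -0.25, against -0.0033 and 0.14 for those without, and the point at -1.67 is OIP5.

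G2/M transcripts were poorer in G and C than most. Their median GC content was 43.9%, against 48.8% over 10583 matched genes. Across the 47 genes the first fold change was higher at higher GC content (Spearman rho 0.44, Pearson r 0.40) and the second was lower (rho -0.28, r -0.21). Over all matched genes the same relations were 0.39 and -0.28 by Spearman's rho. The genes of a comparison share their libraries and are not independent, and no test was made. After adjustment of all matched genes for GC content and length, the medians of the 47 genes were -0.026 (first comparison) and 0.082 (second), against 0.0065 and 0.025 over all those genes.

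**Figure D5:**
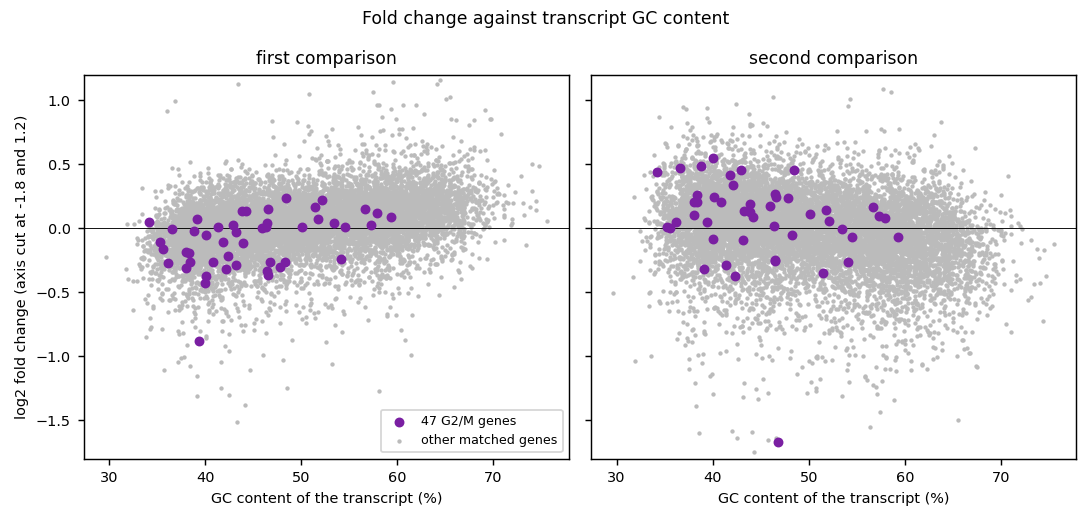
Log2 fold change against the GC content of the transcript in percent, in the first (left) and second comparison (right), for the 47 G2/M genes (purple) and other matched genes (grey). Purple points lie towards the low end of GC content (median 43.9%, against 48.8% over all) and rise with it on the left (rho 0.44) but not on the right (rho -0.28).

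Genes of the same processes that are not among the 47 were counted by 7 lists, written from textbook knowledge, of which 158 of 162 symbols had a row. Their median was -0.018 in the first comparison, with none past 1 in either direction and 6 at -0.5 or less (3.8%, against 2.04% of all genes). In the second comparison it was 0.035, with none risen and 2 fallen (1.27%, against 0.748% of all genes). There 4 were at 0.5 or more (2.53%, against 2.33%) and 7 at -0.5 or less (4.43%, against 5.59%). The fallen genes were E2F5, a repressor E2F that can join DREAM, at -1.21, and MAD2L1BP, which strips MAD2 from the checkpoint complex, at -1.27. MAD2L1BP had levels of 24.4 in the first library and 9.91 in the second, against 25.4 in the shared library. Its partner MAD2L1 was low in the other library.

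The transcription factors of G2/M genes had medians of 0.080 and -0.017 over 16 genes, first and second comparison in turn. FOXM1, which switches on late G2/M genes, was at 0.057 and -0.0096, and MYBL2, which works with it, at 0.054 and -0.31. LIN52, a subunit of the MuvB core shared by DREAM and the MYBL2 complex, was the highest of the list in both, at 0.40 and 0.46. Among 19 further cell cycle kinases and their partners, WEE1, the kinase that holds CDK1 inactive, was highest in both comparisons, at 0.34 and 0.45. PBK was lowest in the first at -0.73 and CKS1B, a small CDK-binding protein, in the second at -0.38. The medians of that list were -0.036 and 0.015.

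The APC/C subunits and inhibitors had medians of 0.074 and -0.12 over 19 genes, with ANAPC13 highest in both comparisons at 0.26 and 0.45, and CDC26 lowest in the first at -0.25. The 8 condensin genes were close to 0, at medians of -0.030 and -0.0071, from NCAPG at -0.15 to NCAPH2 at 0.19 in the first comparison and from NCAPG at -0.14 to SMC4 at 0.33 in the second. Cohesin and its regulators had medians of 0.024 and 0.15 over 17 genes. SGOL1, shugoshin, which protects cohesin at centromeres, was their lowest in the first comparison, with levels of 5.98 in the first library and 11.8 in the second, against 10.6 in the shared library, and STAG1 their highest, at 0.27. In the second comparison ESCO1 was at 0.51 and MAU2 at -0.25.

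The 32 measured genes of other centromere and kinetochore proteins had medians of -0.079 and -0.015. CENPQ, of the constitutive centromere network, had levels of 7.49 in the first library and 21.6 in the second, against 14.3 in the shared library, the lowest log2 fold change of the list in the first comparison at -0.85. CENPT was highest there at 0.21, and in the second comparison CENPN was highest at 0.59 and CENPV lowest at -0.52. Over 47 other kinesins and spindle proteins the medians were 0.015 and 0.086, with DEPDC1 at -0.55 and TUBGCP6 at 0.34 in the first comparison. In the second, TROAP was highest, with levels of 32.5 in the first library and 55.7 in the second, against 32.1 in the shared library, and FAM64A was lowest at -0.73.

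Genes of the preceding phases of the cycle had a similar median in the first comparison and a lower one in the second. For 64 genes that act at G1/S or in DNA replication the medians of the first and second comparison were -0.023 and -0.12, where the G2/M genes had -0.030 and 0.10. Of the 64, 19 were above 0 in the second comparison (29.7%, against 51.1% of all genes), and 8 were at -0.5 or less (12.5%, against 5.59%). RRM2, a subunit of ribonucleotide reductase, alone fell (1.56%, against 0.748%), with levels of 51.3 in the first library and 16.7 in the second, against 54.2 in the shared library. The first minus the second fold change had a median of -0.17 for the 47 G2/M genes and 0.14 for the G1/S genes. After adjustment for GC content and length these were -0.10 and 0.14. With 1 library a group the difference between the lists was not tested.

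Some further members have overlapping genes or copies that the counting may not have separated. Exons of CCNA2 overlap EXOSC9 by 144 bases, those of CDC25C overlap FAM53C by 276, those of KIF20A overlap CDC23 by 68, those of ANLN overlap KIAA0895 by 78 and those of CDCA3 overlap GNB3 by 329, all on opposite strands. The log2 fold changes of these 5 partners ranged from -0.34 (GNB3) to 0.21 (CDC23) over both comparisons. On the same strand, PRC1 shares 2716 of its 4168 exon bases with AC068831.7, NUSAP1 shares 1787 of 2454 with AC087721.2 and BUB1B shares 172 of 3767 with BUB1B-PAK6. The table has no row by these names, and how reads were assigned between them is not known. Further overlaps with genes that have no row concern PLK1, MAD2L1, KIF23, KIF2C, PRC1, HMMR and RACGAP1, on opposite strands. Annotated pseudogenes carry the names of 11 members, among them UBE2C with 4 and AURKA and NEK2 with 2 each.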

How the data were processed

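Per the submitters' processing notes, the tools were CASAVA 1.8.2, TopHat2 2.06, Cufflinks, Cuffdiff 2.1.1 and SAMtools with genome build hg19, without roles. RNA was extracted with TRIzol and libraries made with an Illumina TruSeq kit, per the labels' protocols. The authors deposited 1 table with no header, holding 3 levels per gene in an unnamed unit and 2 log2 fold changes. Fold changes were recomputed from the levels with a pseudocount of 1 and differed from the deposited log2 values by at most 4.97e-12. The shared level was above 1 in every gene listed. No counts are given, so depth is unknown and no interval could be formed. No column was assigned to a sample by order or values.

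The members, lists and the 3' UTR 7-mers were chosen with earlier results of these data known. Named by rule were the 8 highest and 8 lowest members of each comparison and of their difference, the 4 highest and 4 lowest in mean level, the highest and lowest of each role and list, and every member or listed gene at or past 1 in size. The other named genes, the 3' UTR sites beyond MAD2L1 and the limit of promoter sequences to the last 100 bases were chosen after values were seen. Symbols were matched to GENCODE release 29 coding transcripts (10583 of 12040, all 47 members; the principal transcript, then the longest coding sequence). The adjustment was a least squares fit on GC content, transcript length and 3' UTR length with squared terms. Promoters came from RefSeq (GRCh38.p14). Medians were checked on simulated data with a planted shift. For the adjustment only a simpler fit on simulated GC content was run there, which does not test the fit used here. Python 3.11.15, numpy 2.4.6, pandas 2.3.3, scipy 1.17.1 and matplotlib 3.10.9 were used. Alternatives were pseudocounts of 0.1 and 10, a mean level of at least 5, re-centring, the mean, the adjustment, a threshold of 0.5, and removal of genes with the 7-mers.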

Additional observations from a re-analysis of the deposited data

Results flagged for a closer look

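ANLN and CCNA2 were picked out because their log2 fold changes were at least 0.3 in size and of opposite sign in the 2 comparisons; with 1 library for each condition, that difference was not tested. For ANLN the fold changes differed by -0.974 (first minus second), with levels of 15.0 in the first library and 30.5 in the second, against 20.5 in the shared library. For CCNA2 it was -0.650, with levels of 31.6 in the first library and 50.2 in the second, against 39.6 in the shared library. Both genes hold AATCTAA, a 7-mer of the first comparison, in the 3' UTR, and the part of this in their values was not tested.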

How the results depend on the processing

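No paired analysis was possible because each group has 1 library. A median was taken as moved where it differed by 0.05 or more, since there is no replicate spread. The medians of the 47 genes kept their sign in all 3 comparisons under every alternative tried. They moved in 2 cases: the mean in place of the median gave -0.098 in the first comparison, and adjustment for GC content and length gave -0.10 for the first minus the second library. Removal of members with any of the 3' UTR 7-mers, chosen after the data were seen, gave -0.0026, 0.12 and -0.17 for the first comparison, the second and their difference. With a threshold of 0.5 in place of 1, the counts became 1 lower in the first comparison, 1 higher in the second, and 2 higher and 8 lower in the difference. With a pseudocount of 0.1, 1 gene, ANLN, stood below -1 in the difference (-1.02). With a pseudocount of 10, added for the counts after the data were seen, the fallen genes became 0 in the second comparison and the risen ones 0 in the difference, since OIP5 was at -0.98 and 0.79. A pseudocount of 10 moved 24 of 141 single values by 0.1 or more and one of 0.1 moved 2, both of OIP5 (-1.81 in the second comparison, 1.53 in the difference). No member's direction past 2-fold reversed. Depth is unknown, so the precision of low levels such as 6.19 for OIP5 cannot be given.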
